A study of Homo sapiens with 4 samples.

Results

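The ASH1L peaks described here, called distal, were chosen by position. Each had its summit outside every protein-coding gene and more than 10 kb from every protein-coding gene start, on chromosomes 1 to 22 or X. None lay within 2 Mb of a run of undetermined bases of at least 1 Mb. Noncoding genes were not used in this rule, and 38.1% of the distal DMSO summits lay inside an annotated gene of some type. Of the 3092 ASH1L peaks listed for vehicle-treated cells, 2977 remained after the chromosome and assembly rules, and 872 of these were distal. Of the 1829 ASH1L peaks listed for AS-99-treated cells, 1738 remained and 590 were distal. The whole series held 6948 peaks in 4 lists. The peaks came from CUT&RUN, in which an antibody brings a nuclease to its target in permeabilised cells and the released DNA fragments are sequenced. The cells were MV4;11, a human acute leukemia line with an MLL1 rearrangement, the MLL-AF4 fusion, treated for 4 days with 5 µM AS-99, an inhibitor of the ASH1L methyltransferase, or with 0.25% DMSO as the vehicle, and profiled with an antibody to ASH1L or to the histone mark H3K36me2. Each of the 4 combinations of treatment and antibody was 1 library, so differences between treatments had no replicate check, and the intervals given below are 95% intervals that cover counting error over peaks only.

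ASH1L is a SET-domain enzyme that adds methyl groups to lysine 36 of histone H3, and H3K36me2, the dimethylated form, is found over transcribed genes and in broad stretches between them. In leukemia with MLL1 rearrangements, ASH1L is known as a partner of MLL1 at its target genes. Sequence between genes holds enhancers, elements bound by transcription factors that act on genes at a distance, and in myeloid cells the factors PU.1, C/EBP, RUNX1 and AP-1 are known to bind many of them. The nearest protein-coding gene start is given below with each peak as a landmark, and no value here ties a peak to that gene.

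The 4 libraries held between 13208636 and 19635489 fragments after duplicate filtering, with the DMSO ASH1L library the deepest and the AS-99 ASH1L library at 15381860. The H3K36me2 lists held 1375 peaks for DMSO and 652 for AS-99. No file used here gives expression or a control library, so the identity of the cells and the specificity of the antibodies could not be checked from these values.

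Sequences at or beside the summits of 8 distal peaks are shown first, read from GRCh37, which has the coordinates of hg19, on the plus strand from 5′ to 3′. The first is the summit window, the 300 bp centred on the base of highest fragment coverage, of the strongest distal peak, near IRS4, and its capitals mark bases inside stretches of 32 bases that occur more than once in the reference. In the others capitals mark every match to the AP-1 (TGANTCA), PU.1 (GAGGAAGT), RUNX (TGTGGTTT) or C/EBP (TTGCNNAA) motif on either strand. HNRNPLL is 1 of the regions listed in all 4 libraries, MYB 1 of the genes known from leukemia, and QKI 1 of the peaks listed only after AS-99. SPRY2, PTGER4, RIPOR2 and XPR1 are shown by the window 100 to 400 bp to 1 side of the summit. Such windows were used because motif matches turned out to lie there more often than at the summit itself. The peaks and sides shown were set by hand, and every window marked for motifs holds a match. They are not typical, since AP-1 matched 20.4% and PU.1 6.31% of the side windows of distal DMSO peaks. The XPR1 window lies inside the listed peak, those of SPRY2 and PTGER4 do so only in part, and that of RIPOR2 lies outside it.
IRS4 chrX:108297551-108297850, summit window: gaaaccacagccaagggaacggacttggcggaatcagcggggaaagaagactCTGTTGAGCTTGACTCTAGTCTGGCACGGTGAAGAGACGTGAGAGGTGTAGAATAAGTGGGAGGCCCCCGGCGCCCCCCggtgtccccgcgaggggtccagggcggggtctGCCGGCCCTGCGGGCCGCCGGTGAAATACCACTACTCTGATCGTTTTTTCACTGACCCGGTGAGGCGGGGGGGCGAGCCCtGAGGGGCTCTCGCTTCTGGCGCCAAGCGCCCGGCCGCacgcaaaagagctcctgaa
HNRNPLL chr2:38760698-38760997, summit window: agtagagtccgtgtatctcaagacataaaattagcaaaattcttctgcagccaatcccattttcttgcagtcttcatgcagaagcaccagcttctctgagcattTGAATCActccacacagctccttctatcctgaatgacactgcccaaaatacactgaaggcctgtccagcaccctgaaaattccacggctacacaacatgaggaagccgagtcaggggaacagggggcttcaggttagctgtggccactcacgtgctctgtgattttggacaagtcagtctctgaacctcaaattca
SPRY2 chr13:80742128-80742427, lower side: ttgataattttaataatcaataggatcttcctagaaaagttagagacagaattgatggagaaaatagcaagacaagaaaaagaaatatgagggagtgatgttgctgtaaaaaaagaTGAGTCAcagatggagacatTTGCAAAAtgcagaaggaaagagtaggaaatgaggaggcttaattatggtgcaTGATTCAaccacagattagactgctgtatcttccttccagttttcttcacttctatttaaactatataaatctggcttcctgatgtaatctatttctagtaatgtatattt
PTGER4 chr5:40487110-40487409, upper side: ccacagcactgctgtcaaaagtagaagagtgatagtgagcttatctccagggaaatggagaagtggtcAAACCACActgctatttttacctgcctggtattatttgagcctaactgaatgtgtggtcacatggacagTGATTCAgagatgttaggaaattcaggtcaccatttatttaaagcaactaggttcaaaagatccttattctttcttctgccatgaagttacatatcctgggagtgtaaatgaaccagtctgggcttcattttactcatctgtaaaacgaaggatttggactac
RIPOR2 chr6:25138335-25138634, lower side: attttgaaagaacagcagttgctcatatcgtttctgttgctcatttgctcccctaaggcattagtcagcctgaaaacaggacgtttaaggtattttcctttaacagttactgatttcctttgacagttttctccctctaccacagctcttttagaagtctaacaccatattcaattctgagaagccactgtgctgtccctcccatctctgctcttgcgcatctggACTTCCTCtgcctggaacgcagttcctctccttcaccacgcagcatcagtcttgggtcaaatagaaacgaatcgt
MYB chr6:135602199-135602498, summit window: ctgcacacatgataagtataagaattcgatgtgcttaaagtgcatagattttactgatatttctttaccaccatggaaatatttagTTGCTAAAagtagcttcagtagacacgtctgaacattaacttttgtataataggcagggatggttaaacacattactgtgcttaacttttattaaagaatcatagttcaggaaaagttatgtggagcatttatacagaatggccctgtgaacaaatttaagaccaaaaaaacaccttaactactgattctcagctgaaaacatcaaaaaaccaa
XPR1 chr1:180540688-180540987, lower side: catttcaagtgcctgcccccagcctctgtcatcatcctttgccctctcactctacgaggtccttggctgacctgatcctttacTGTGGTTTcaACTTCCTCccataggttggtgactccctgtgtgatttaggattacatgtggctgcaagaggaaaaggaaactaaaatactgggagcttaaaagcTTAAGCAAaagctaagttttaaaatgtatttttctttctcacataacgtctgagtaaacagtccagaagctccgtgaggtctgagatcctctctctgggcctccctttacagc
QKI chr6:164530199-164530498, summit window: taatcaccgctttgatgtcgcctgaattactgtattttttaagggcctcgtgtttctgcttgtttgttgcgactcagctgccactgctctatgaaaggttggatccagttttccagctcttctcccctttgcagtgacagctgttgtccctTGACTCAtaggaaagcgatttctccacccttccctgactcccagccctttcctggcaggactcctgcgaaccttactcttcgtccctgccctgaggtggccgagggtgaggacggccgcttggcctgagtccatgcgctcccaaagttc

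To determine how the distal peaks differed between vehicle and inhibitor, their number was compared with that of ASH1L peaks at other positions. Distal peaks numbered 872 with DMSO and 590 with AS-99, a ratio of 0.677 (0.608 to 0.752). At promoters, within 1 kb of a gene start, the numbers were 730 and 254, a ratio of 0.348 (0.300 to 0.402). In gene bodies, more than 10 kb from a start, they were 949 and 623, a ratio of 0.656 (0.592 to 0.727), whose interval overlaps that of the distal peaks. Distal peaks therefore made up 29.3% (27.7 to 30.96) of the DMSO list and 33.9% (31.7 to 36.2) of the AS-99 list, a difference of 4.66 percentage points (1.91 to 7.43). Distal sequence, by the same rule, spanned 48.9% of the usable genome. The listed DMSO peaks were also thinned by calculation to the AS-99 depth. Of the 872 distal peaks, 740 were then expected to remain, and the ratio became 0.797 (0.714 to 0.890). Peaks were not called again, so listed peaks could only be lost and unlisted sites could not enter. The ratio is therefore not that of lists called at equal depth. The same thinning gave 0.781 (0.703 to 0.869) in gene bodies and 0.758 (0.644 to 0.889) in flanks, 1 to 10 kb from a start, close to the distal value, and 0.408 (0.351 to 0.473) at promoters.

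**Figure D1:**
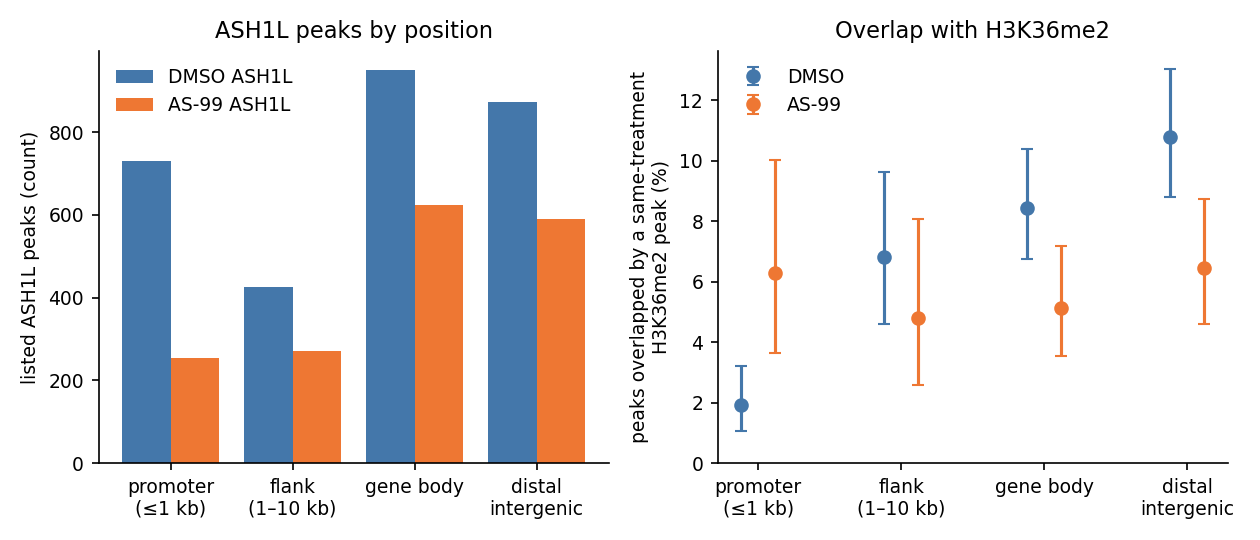
Left, number of listed ASH1L peaks by position for DMSO (blue) and AS-99 (orange); right, percentage of those peaks overlapped by an H3K36me2 peak of the same treatment, with points for the share and bars for its exact 95% interval over peaks. Distal peaks went from 872 to 590 and promoter peaks from 730 to 254, and with DMSO the overlap with H3K36me2 was 10.8% for distal and 1.92% for promoter peaks.

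Distal peaks were short and modest in height. The pileup, the count of fragments that cover the summit without scaling for depth, had a median of 16 with DMSO and ranged from 10 to 115, with 13 peaks at 30 or above. With AS-99 the median was 14 and the range 9 to 81. The fold enrichment, the ratio of pileup to the local background, had a median of 4.84 (4.76 to 4.92) in distal DMSO peaks and 4.62 (4.59 to 4.67) in DMSO peaks at all other positions. The background under the distal peaks had a median of 2.49 fragments, against 2.70 elsewhere, while the median pileup was 16 in both. With AS-99 the median fold enrichment was 4.96 in distal and 4.90 in other peaks, with overlapping intervals. The −log10 p of distal DMSO peaks started at 5.07 and had a median of 8.86, and 284 of 872 (32.6%) reached 10. Around the 10 kb limit, the nearest DMSO peaks inside it lay 10203 bp from JUND (pileup 23) and 10211 bp from RIPK1 (pileup 16), and the nearest outside it lay 9949 bp from CLN8 (pileup 21) and 9841 bp from EIF1 (pileup 17).

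Within the distal sequence, peaks lay toward genes. With DMSO, 42.5% (39.2 to 45.9) of distal peaks were 10 to 50 kb from a gene start, where 22.9% of the distal sequence lies, and 4.93% (3.59 to 6.59) were more than 500 kb away, where 21.3% of it lies. With AS-99 these shares were 41.5% (37.5 to 45.6) and 5.08% (3.46 to 7.18). The median distance to a gene start was 63429 bp with DMSO. Annotated long noncoding RNA genes covered the summit of 308 distal DMSO peaks (35.3%, 32.1 to 38.6) and of 189 AS-99 peaks (32.03%, 28.3 to 35.97), against 29.3% of distal sequence windows. A start of such a gene lay within 1 kb of 82 DMSO summits (9.40%) and 41 AS-99 summits (6.95%), against 1.20% of distal windows. These 82 peaks had a median GC content of 56.3% in the summit window, against 48.3% in the other 790.

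**Figure D2:**
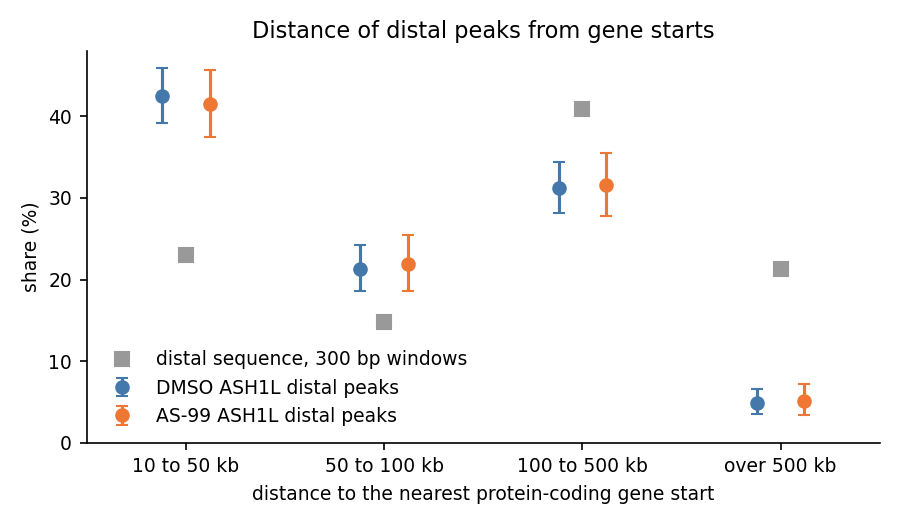
Share of distal ASH1L peaks (points with exact 95% intervals over peaks) and of distal sequence in 300 bp windows (grey squares) by distance to the nearest protein-coding gene start. In both lists the share of peaks was above that of sequence from 10 to 100 kb and below it beyond 100 kb.

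The chromosomes differed in their share of distal peaks. Chromosome 8 held 96 of the 872 DMSO peaks (11.0%, 9.01 to 13.3) and 74 of the 590 AS-99 peaks (12.5%, 9.98 to 15.5), with 5.51% of the distal sequence. Chromosome 19, the chromosome densest in genes, held 2.60 distal DMSO peaks per Mb of distal sequence, and chromosome X held 0.113. Chromosome 8 held 1.29, between chromosome 17 with 1.34 and chromosome 20 with 1.22. Chromosome 17 had 3.67% of the distal DMSO peaks on 1.77% of the distal sequence. The number of copies of each chromosome in these cells was not measured, and its part in these densities was not tested.

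Base composition and short motifs, which the choice of peaks did not use, were read around the summits. Summit windows of distal DMSO peaks had a median GC content of 49.0% (quartiles 43.0 and 55.7), between the 39.0% of all distal windows and the 64.0% of promoter peaks, and close to the 50.3% of gene body peaks. Distal AS-99 peaks were lower at 45.3% (39.1 to 52.3), as AS-99 peaks were at every other position, with 46.0% in gene bodies and 61.3% at promoters. The 120 distal DMSO peaks that an AS-99 peak overlapped and the 752 others had the same median of 49.0%, whereas the 470 AS-99 peaks without a DMSO peak had a median of 44.5%. CpG pairs had a median of 4 per distal DMSO window, 2 per distal sequence window and 23 per promoter window. GC content was highest at the summit, at 49.8% within 100 bp against 44.3% at 1000 to 2000 bp with DMSO, and 46.3% against 43.4% with AS-99.

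Matches to the AP-1 motif, the site of the FOS and JUN families, were most frequent beside the summits. In distal DMSO peaks there were 5.73 matches per 100 peaks and 100 bp within 100 bp of the summit, 7.68 at 100 to 400 bp and 3.31 at 1000 to 2000 bp. In distal AS-99 peaks the same densities were 4.75, 8.31 and 3.36. PU.1, the ETS factor that directs myeloid development, showed the same arrangement more sharply, with 0.688 matches at the summit, 2.24 at 100 to 400 bp and 0.499 farther out with DMSO, and 0.593, 2.26 and 0.551 with AS-99. This arrangement was noticed in the profile and then counted on the same peaks, so the counts describe it and do not test it.

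Counted in the 300 bp windows at 100 to 400 bp on each side, AP-1 matched 20.4% of the 1744 windows of distal DMSO peaks and 22.4% of the 1180 windows of distal AS-99 peaks, against 9.69% of all distal sequence windows of that length. PU.1 matched 6.31% and 6.36% against 1.59%, and RUNX matched 5.10% and 5.17% against 2.97%. C/EBP, a family of granulocyte and monocyte factors, matched 20.7% and 20.7% against 16.6%. The GATA motif AGATAA, read by factors of the erythroid lineage among others, went the other way with 15.5% and 16.9% against 22.6%. The letters CCACNAGG from the core of the CTCF site matched 5.33% and 3.73% against 3.11%. Distal DMSO peaks had a median length of 320 bp, so the side windows lay partly or wholly outside most listed peaks. A match says only that the letters occur, and base composition, which differs between these windows and the distal sequence, was not adjusted for.

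By peak, 320 of the 872 distal DMSO peaks (36.7%, 33.5 to 39.99) had an AP-1 match in at least 1 side window, against 308 of 949 gene body peaks (32.5%, 29.5 to 35.5) and 78 of 730 promoter peaks (10.7%, 8.54 to 13.2). The difference of distal and gene body peaks was 4.24 points (−0.127 to 8.60), an interval that includes 0. For PU.1 the distal share was 109 of 872 (12.5%, 10.4 to 14.9), against 14.5% in gene bodies, a difference of −2.04 points (−5.18 to 1.12). For C/EBP it was 36.1% against 29.8% in gene bodies, a difference of 6.30 points (1.98 to 10.6). Distal H3K36me2 peaks of the DMSO library that met no ASH1L peak had AP-1 beside the summit at nearly the same rate, 146 of 412 (35.4%, 30.8 to 40.3), a difference of 1.26 points (−4.42 to 6.78). The AP-1 rate beside the summit was thus not shown to be particular to ASH1L. For PU.1 these H3K36me2 peaks had 2.14 matches per 100 peaks and 100 bp at 100 to 400 bp, near the 2.24 of distal DMSO ASH1L peaks. Within 100 bp of the summit they had 2.18, against 0.688, a difference that was not tested. Among distal ASH1L peaks, AP-1 lay beside 43.3% of those overlapped by an AS-99 peak and 35.6% of the others, a difference of 7.70 points (−1.51 to 17.2).

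**Figure D3:**
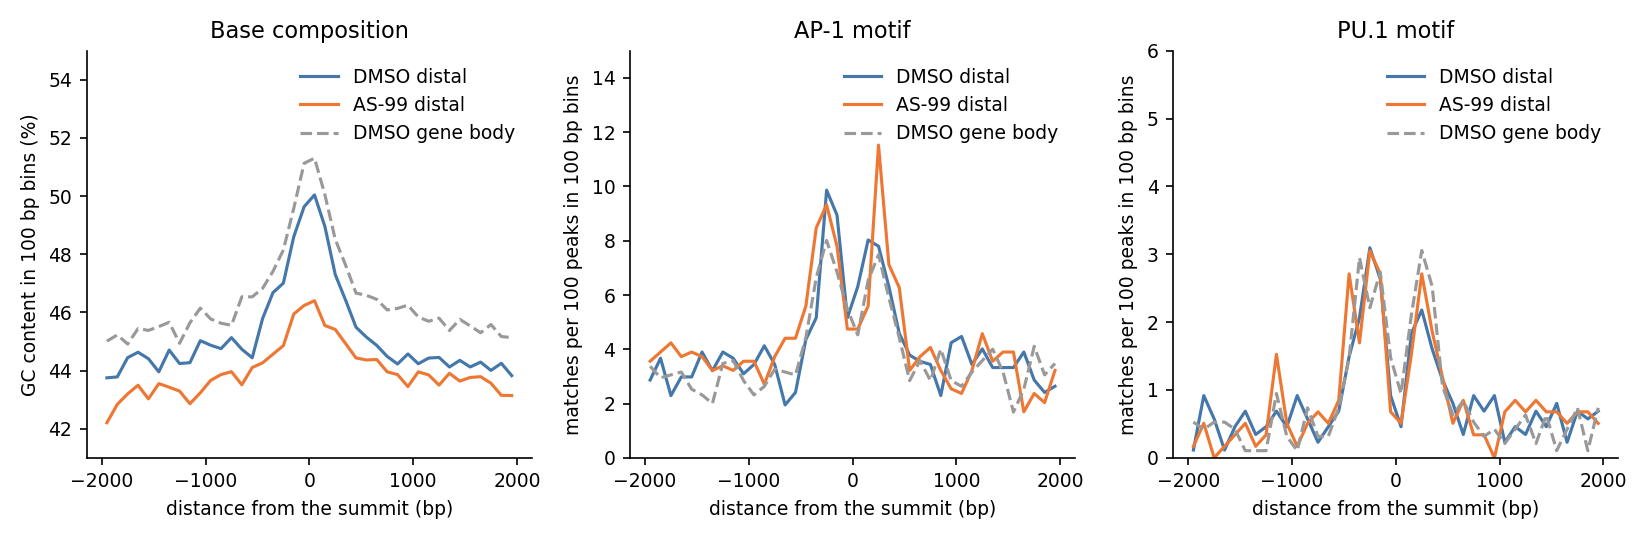
GC content (left), AP-1 matches (middle) and PU.1 matches (right) in 100 bp bins by distance from the summit, for distal DMSO peaks (blue, 872), distal AS-99 peaks (orange, 590) and gene body DMSO peaks (grey dashes, 949). GC content peaked at the summit, whereas both motifs were highest 100 to 400 bp to either side, at 7.68 AP-1 and 2.24 PU.1 matches per 100 distal DMSO peaks against 5.73 and 0.688 within 100 bp.

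In the summit windows of distal DMSO peaks AP-1 and PU.1 matched less often than beside the summit, at 147 windows (16.9%, 14.4 to 19.5) and 26 (2.98%, 1.96 to 4.34), whereas RUNX, at 49 (5.62%, 4.19 to 7.36), and the CTCF letters, at 5.73%, were at about their side-window rates. Gene body peaks, the positions most like the distal ones, had AP-1 in 14.1% of summit windows, a difference of 2.74 points (−0.585 to 6.08), and RUNX in 4.43%, a difference of 1.19 points (−0.822 to 3.26), and both intervals include 0. Promoter peaks had AP-1 in 3.97% and RUNX in 0.959%. The GC-rich SP/KLF motif GGGCGGGG was found in 3.33% of distal windows and 21.8% of promoter windows. The CENP-B box of centromeric alpha satellite was found in 0 of the 872 distal windows, which allows a share of up to 0.422%. It occurred in only 0.0072% of all distal sequence windows. The choice of peaks had also left out those near large runs of undetermined bases, so the absence of matches says little.

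Repeated sequence was less common under distal peaks than in the distal genome. No stretch of 32 bases recurred in the reference for 677 distal DMSO windows (77.6%) and 441 AS-99 windows (74.7%), against 85.0% of other DMSO peaks and 56.2% of 13489 windows on a regular 100 kb grid of distal sequence. Windows made mostly of recurring stretches numbered 36 with DMSO (4.13%) and 32 with AS-99, against 12.9% of the grid.

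Retention was measured as the share of DMSO peaks overlapped by an AS-99 ASH1L peak by at least 1 bp. Of the 872 distal DMSO peaks, 120 were overlapped (13.8%, 11.5 to 16.2), beside 11.5% of all 2977 DMSO peaks. The share was 10.5% for all other positions, a difference of 3.26 points (0.725 to 6.004), and 9.59% for promoters, a difference of 4.17 points (1.00 to 7.29). The difference to all other positions was not stable, since its interval included 0 with a limit of 50 kb from gene starts (−1.14 to 5.26), with all annotated genes in place of protein-coding ones (−1.50 to 5.81) and with unique summit windows only (−0.466 to 5.19). Seen from AS-99, the same 120 of 590 distal peaks met a DMSO peak (20.3%, 17.2 to 23.8), beside 19.6% of all 1738. Retention followed height. It was 24 of 300 for distal DMSO peaks with a pileup of 10 to 14 and 31.2% (24.3 to 38.7) for those at 21 or more, where 53 of 170 were kept against 23.04% (19.1 to 27.4) at other positions. The difference to other positions had an interval above 0 in the highest of the 5 pileup classes, at 8.14 points (0.382 to 16.4), and not in the lower 4.

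**Figure D4:**
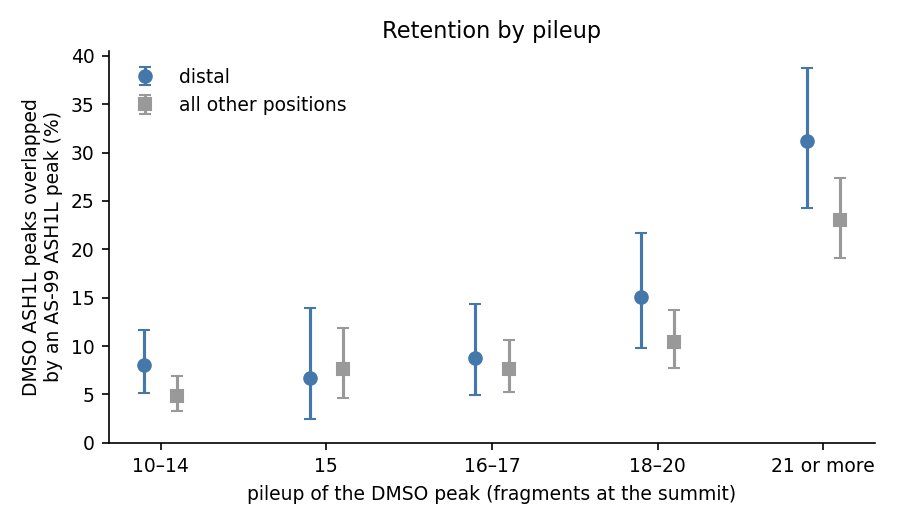
Percentage of DMSO ASH1L peaks overlapped by an AS-99 ASH1L peak, by pileup of the DMSO peak, for distal peaks (blue circles) and all other positions (grey squares), with exact 95% intervals over peaks. Both series were highest at a pileup of 21 or more, at 31.2% for distal and 23.04% for other peaks.

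The relation to H3K36me2 was examined next. With DMSO, 94 of the 872 distal ASH1L peaks overlapped an H3K36me2 peak of the same treatment (10.8%, 8.80 to 13.03), beside 7.29% of all DMSO ASH1L peaks. Promoter peaks overlapped the mark in 14 of 730 cases (1.92%, 1.05 to 3.20) and gene body peaks in 8.43% (6.74 to 10.4). Distal peaks exceeded all others by 4.94 points (2.76 to 7.35), whereas their difference to gene body peaks was 2.35 points (−0.358 to 5.10). With AS-99, 38 of 590 distal peaks overlapped the mark (6.44%, 4.60 to 8.73), beside 5.7% of all AS-99 ASH1L peaks, and the difference to other positions was 1.13 points (−1.12 to 3.68). The distal share was lower with AS-99 than with DMSO (difference −4.34 points, −7.15 to −1.38), with a list of H3K36me2 peaks that was itself shorter.

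Distal peaks that overlapped H3K36me2 were kept more often. An AS-99 ASH1L peak overlapped 33 of the 94 DMSO peaks with the mark (35.1%, 25.5 to 45.6) and 87 of the 778 without (11.2%, 9.05 to 13.6), a difference of 23.9 points (14.7 to 34.2). Peaks with the mark were also higher, with a median pileup of 19.5 against 16. Within the highest pileup class, 19 of 40 with the mark were kept and 34 of 130 without, a difference of 21.3 points (4.65 to 37.8). Leaving out regions listed in all 4 libraries, the difference over all heights was 14.4 points (5.88 to 25.01). In all, 675 distal DMSO peaks (77.4%) met no peak of any other list, and 435 distal AS-99 peaks (73.7%) met none. These shares were not counted at other positions, so they are not shown to be particular to distal peaks.

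For the 120 distal regions with 1 peak in each ASH1L list, the pileup was divided by the number of filtered fragments to compare heights. The median log2 ratio of AS-99 to DMSO was 0.13 (0.07 to 0.24), with 83 regions higher and 37 lower under AS-99, beside 69.5% higher among all 341 such pairs. The ratios ranged from −0.82 to 1.00. Before scaling, 83 regions had fewer fragments under AS-99, 11 the same number and 26 more. With fold enrichment in place of scaled pileup the median was −0.02 (−0.07 to 0.05), so the direction of the median depended on the scale. The ratio went down with height, from a median of 0.46 for DMSO pileups of 10 to 15, where all 30 pairs were higher, to −0.11 for 25 to 115, where 9 of 27 were. The lowest pileup listed under AS-99 was 9, which limits how low the ratio of a low DMSO peak could be. The pairs were also grouped by DMSO pileup, the denominator of the ratio, so a downward trend is partly built into this grouping. The parts of the limit and of the grouping in the trend were not tested.

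**Figure D5:**
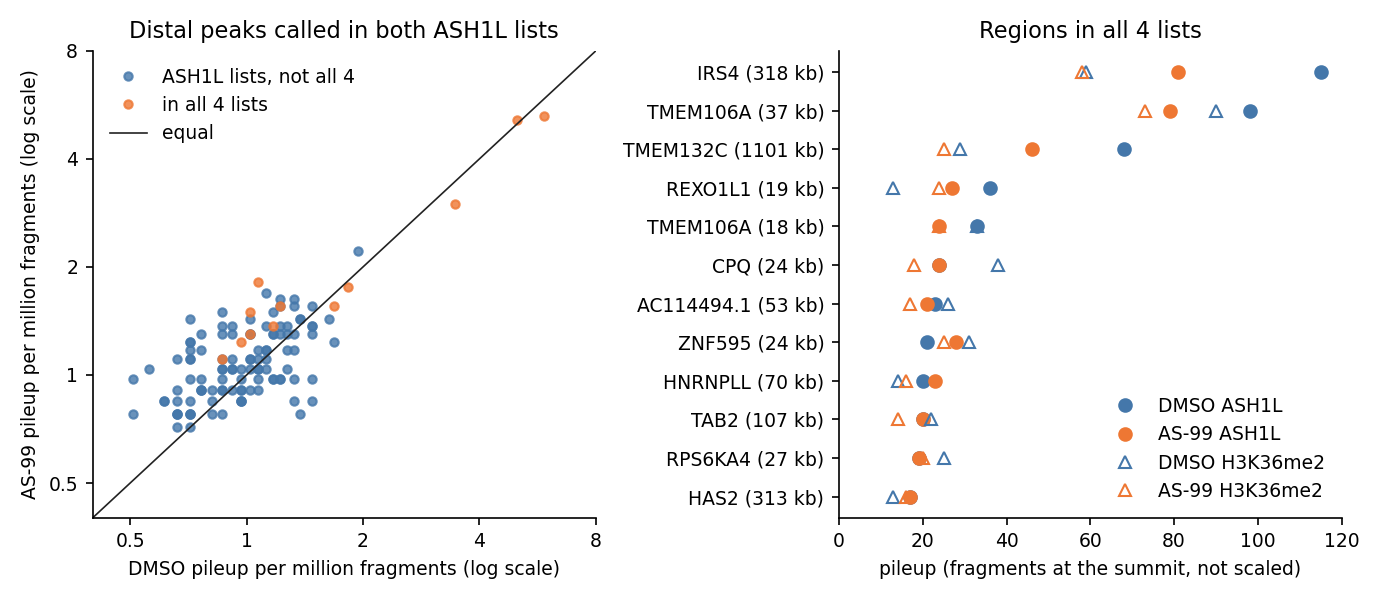
Left, pileup per 1000000 filtered fragments in the AS-99 against the DMSO ASH1L library for the 120 distal regions with 1 peak in each (log axes, line of equality), with the 12 regions listed in all 4 libraries in orange. Right, unscaled pileups of those 12 regions in the ASH1L (filled circles) and H3K36me2 (open triangles) libraries, DMSO blue and AS-99 orange, by nearest gene and its distance; IRS4 reached 115 with DMSO ASH1L and TMEM106A at 37 kb was above 70 in every library.

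The regions listed under both treatments with both antibodies numbered 12, and they included the strongest. The peak 318 kb from IRS4, an insulin receptor substrate gene, had pileups of 115 in DMSO ASH1L, 81 in AS-99 ASH1L, 59 in DMSO H3K36me2 and 58 in AS-99 H3K36me2. It covers the pseudogene CTD-2328D6.1, and 38.3% of the 32-base stretches in its summit window occur elsewhere: 71 of 269 on the unplaced scaffold GL000220.1, which is known to carry ribosomal RNA genes, and 46 on chromosome 2. The peak near TMEM132C, chr12:127650485-127650977, had 68, 46, 29 and 25, and 18.6% of its stretches recurred. The peak 36.8 kb from TMEM106A, chr17:41399880-41401148, had 98, 79, 90 and 73 in the same order. A second peak 18.3 kb from TMEM106A, over the noncoding LINC00854, had 33, 24, 33 and 24. In each of these 4 regions both antibodies gave a listed peak under both treatments, and the ASH1L pileup was lower with AS-99, as the depth was.

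Among the other strong or widely listed regions, that near REXO1L1 on chromosome 8, a gene of a multicopy family, had 36, 27, 13 and 24, with 76.2% of its stretches recurring. HNRNPLL, a splicing regulator of lymphocytes, lay 69.9 kb from a peak with 20, 23, 14 and 16 whose window did not recur at all and held the AP-1 match shown above. RPS6KA4, a stress-activated kinase, lay 27.3 kb from a peak with 19, 19, 25 and 20, also with an AP-1 match. Near GFRA2, a receptor of the GDNF family, a peak 46.0 kb away was listed in both ASH1L libraries, with 38 and 34, and in DMSO H3K36me2, with 31. The peak near ZNF595 had 21, 28, 31 and 25 and was higher under AS-99 after scaling, with a log2 ratio of 0.77. Those near AC114494.1, TAB2, CPQ and HAS2 had DMSO ASH1L pileups between 17 and 24. Stretches recurred in the windows near ZNF595 (24.2%), AC114494.1 (35.3%), TAB2 (33.1%) and RPS6KA4 (7.43%), and not in those near CPQ and HAS2.

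Among the 4 distal DMSO peaks of highest −log10 p without an AS-99 ASH1L peak, the order depended on the measure. The peak 193 kb from PTGER4, the EP4 receptor for prostaglandin E2, at chr5:40486797-40487249, had the highest pileup of them, 48 (95% Poisson interval 35.4 to 63.6), but the lowest fold enrichment, 7.66, and it was listed in no other library. Its window did not recur, and its upper side held RUNX and AP-1 matches. The peak 173 kb from SPRY2, a Sprouty inhibitor of receptor tyrosine kinase signalling, had 28 in DMSO ASH1L, 24 in DMSO H3K36me2 and 14 in AS-99 H3K36me2, at a fold enrichment of 9.99. Its lower side held AP-1 matches at −281 and −208 bp from the summit, both outside the listed peak. G6PC1, the catalytic subunit of glucose-6-phosphatase, lay 28.3 kb from a peak with 26 in DMSO ASH1L, a fold enrichment of 8.49, and 16 in DMSO H3K36me2. The last, 179 kb from REXO1L1, had 25 in DMSO ASH1L, a fold enrichment of 9.18, and 13 in AS-99 H3K36me2, and 89.6% of its stretches recurred. Absence from a list says that no peak passed the threshold, since the deposited files give no value outside peaks.

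The strongest distal peaks listed with AS-99 and not with DMSO had pileups from 23 to 29. That near CYRIB, 28.2 kb away, had a pileup of 29, and those near SMAD3, a mediator of TGF-β signalling, and XPR1, a phosphate exporter, had 24 each at 21.5 and 60.1 kb. The peak 695 kb from QKI, an RNA-binding protein, had 23 and an AP-1 match 4 bp from its summit. The XPR1 peak had PU.1 and RUNX matches close together at −303 and −313 bp from its summit. None of these 4 met an H3K36me2 peak.

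Between the listed pairs, the ratio was lowest near H3-7, a histone gene, where the pileup was 27 with DMSO and 12 with AS-99 (log2 −0.82), and near ARPIN, an inhibitor of the Arp2/3 complex, with 29 and 13 (−0.81). LRTM1 with 26 and 13 (−0.65) and SERTAD2 with 29 and 15 (−0.60) followed. The ratio was highest near RIPOR2, 96.3 kb away, with 14 and 22 (1.00), then KRTAP5-10 with 10 and 15 (0.94), TBX3, a T-box repressor, with 11 and 16 (0.89), and CHST1 with 14 and 19 (0.79). A PU.1 match lay at −171 bp from the summit of the RIPOR2 peak, outside the listed peak itself. These counts are small, and with 1 library a group no value here separates such a difference from the spread between libraries.

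By nearest gene, the distal DMSO peaks fell to 744 genes and the AS-99 peaks to 535, and 202 genes were in both, 27.2% of the first and 37.8% of the second. Of 40 genes known from blood development or MLL1-rearranged leukemia, 5 (12.5%) were the nearest gene of a distal DMSO peak and 2 of a distal AS-99 peak, beside 3.70% and 2.66% of all 20098 protein-coding genes. A distal peak lay within 100 kb of 3 of the 40 (7.5%) in each list, beside 6.03% of all genes with DMSO and 4.02% with AS-99. With lists this small these counts are descriptions and were not tested. With DMSO these 3 were MYB, a progenitor transcription factor, with a peak 99.9 kb away, LMO2, a bridging protein of hematopoietic complexes, 38.7 kb away, and IKZF1, the lymphoid factor Ikaros, 83.1 kb away. The MYB peak had pileups of 21 in DMSO ASH1L, 27 in DMSO H3K36me2 and 20 in AS-99 H3K36me2, and none in AS-99 ASH1L. The LMO2 peak had 17 in DMSO ASH1L and 25 in DMSO H3K36me2, and 2 C/EBP matches in its window. The IKZF1 peak had 13 in DMSO ASH1L only.

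With AS-99 the genes were MYC, LYL1 and MNDA. MNDA, a nuclear antigen of the myeloid lineage, had a peak 21.7 kb away with a pileup of 13 in AS-99 ASH1L only, and LYL1, a bHLH factor, had one 69.1 kb away with 14 that lay nearer to IER2. MYC was the nearest gene of 3 distal DMSO peaks, 307 to 999 kb away with pileups of 17 to 23, and of 4 distal AS-99 peaks, 24.9 to 516 kb away with pileups of 17 to 23. None of these 7 was shared between the lists, as was so for most distal peaks. Of all distal peaks, 13.8% with DMSO and 20.3% with AS-99 met a peak of the other ASH1L list. HOXA9, MEIS1, MEF2C and FLT3, known targets of MLL1 fusions, were the nearest gene of no distal peak in either list. The same held for most genes. Of all protein-coding genes, 3.70% were nearest to a distal DMSO peak and 2.66% to a distal AS-99 peak. The absence is thus not shown to be particular to these targets. Among the leukemia and blood genes examined, MYB, MYC, BCL2, IKZF1 and LMO2 were nearest to a distal DMSO peak, and MYC and MNDA to a distal AS-99 peak.

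Distal peaks also occurred in groups, which were picked out after their values were seen. A neighbour within 50 kb was present for 137 distal DMSO peaks (15.7%) and 58 AS-99 peaks (9.83%), a share that depends on the length of the list, which was shorter with AS-99. Groups of at least 3 peaks numbered 5 with DMSO and 2 with AS-99. On chromosome 1, 3 peaks over 55.6 kb beyond IRF2BP2, a corepressor partner of IRF2, had DMSO pileups of 25, 28 and 26, and 3 over 36.6 kb beyond TOMM20, a mitochondrial import receptor, had 14, 27 and 26. None of these 6 was listed with AS-99. Near UACA 3 peaks over 18.2 kb had 20, 27 and 29 and none was kept. Near CYP1B1, a cytochrome P450, 2 of 3 peaks over 49.6 kb were kept, with DMSO pileups of 14, 17 and 14. Most distal DMSO peaks were not kept, with 13.8% overlapped by an AS-99 peak.

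DUSP4, a phosphatase of MAP kinases, INHBA, the activin βA subunit, and TRIB1, a pseudokinase that targets C/EBPα for degradation, were each the nearest gene of 4 distal DMSO peaks, as were TOMM20 and UACA. The DUSP4 peaks had pileups from 15 to 27 and the INHBA peaks from 12 to 18, and none of these 8 was listed with AS-99. The TRIB1 peaks had 27, 26, 26 and 17, and the second of them, 75.7 kb from the gene, had 18 with AS-99. For comparison, 13.8% of all distal DMSO peaks were kept.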

How the data were processed

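Peaks came from 4 CUT&RUN libraries, 1 per combination of treatment and antibody, grouped by the labels. Per the file headers, the authors called peaks with MACS 2.1.0.20150731 on paired-end fragments at a q-value limit of 0.01, with at most 2 duplicates per position, a local background of 10 kb and no control. The study's methods name another MACS version, a p-value limit and mapping with Bowtie2 to hg19, and the headers were followed. Its methods and its reporting form differ on replicates and pooling, and its methods give a slightly higher dose than the labels. The deposited signal is the pileup, not scaled by the authors. The deposited −log10 p-value and q-value come from a Poisson model against the background, and the deposited fold enrichment divides pileup plus 1 by background plus 1, as a ratio.

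Gene models were those of GENCODE release 44 on GRCh37 (20098 protein-coding genes on the chromosomes used). Of the ASH1L peaks, 96 with DMSO and 74 with AS-99 lay near runs of N, and 19 and 17 on other sequences, and were left out. Shares have Clopper-Pearson intervals, differences of shares Newcombe intervals, count ratios exact conditional binomial intervals and medians order-statistic intervals, all at 95% (scipy 1.17.1), and scripts were tested on simulated data. Fragments carry no molecular identifiers, so intervals cover counting error only. Peaks named with their values were, with their nearest gene start, the 6 of highest −log10 p in each list, the 4 of highest −log10 p absent from the other ASH1L list, the 4 pairs at each end of the log2 ratio, the 6 highest DMSO peaks overlapping the mark, all distal regions in 4 lists, and peaks within 100 kb of 40 listed genes; groups of neighbouring peaks and genes with several peaks were added after their values were seen. The members, lists and motifs were chosen with earlier results of these data known. Recurrence of 32-base stretches, and motif windows beside the summit, were added after the files were seen, because the reference marks no repeats (0 lower-case bases). A group of neighbouring peaks is not reported here.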

Additional observations from a re-analysis of the deposited data

How the results depend on the processing

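Of 83 alternative values of 9 results, 69 kept their direction and moved by less than the spread allowed, 12 moved and 2 reversed. The count ratio of distal peaks was 0.606 at a −log10 p of at least 10 and 0.797 with the listed DMSO peaks thinned by calculation to the AS-99 depth. It was 1.10 when both lists were cut to equal length, a reversal set by that construction. Retention of 13.8% was 16.7% with peaks near N runs kept, 11.2% with a reciprocal overlap of 50% and 17.7% with equal lists; its difference to other positions was 6.66 points at a −log10 p of at least 10 and 6.04 with peaks near N runs. The share of distal DMSO peaks with H3K36me2 was 13.6% with peaks near N runs and 7.45% with reciprocal overlap, that of AS-99 peaks 10.6% with peaks near N runs and 4.50% without regions in all 4 lists, and the difference between positions 7.77 points with peaks near N runs. The matched log2 ratio was −0.018 with fold enrichment. The cause of the other moves was not tested. The interval of the retention difference included 0 at a distance of 50 kb, with all annotated genes and, in a check added after the data were seen, for unique summit windows. That of the share difference included 0 at a −log10 p of at least 10 (−0.472 to 9.88) and with equal lists (−0.0471 to 6.17). The planned repeat share was not run, because the reference marks no repeats. No paired analysis was possible because every group has a single library, and for the same reason no replicate could be left out. The quartiles of the distal DMSO pileup were 14 and 19 fragments, which limits what a missing overlap can show.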
